A study of Rattus norvegicus with 12 samples.

Results

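The genes described here are 8 members of the death receptor pathway, Fas, Tnfrsf1a, Tnfrsf12a, Fadd, Ripk1, Casp8, Cflar and Birc2, out of 14217 genes with a probe set of their own. They were chosen by name, and every probe set whose annotation gives 1 of these symbols was taken, which found all 8 genes on 13 of the 31042 probe sets of the Affymetrix Rat Genome 230 2.0 array that are not controls. RNA was measured on 12 arrays in 4 groups of 3 plates. The groups were WB311 cells with 50 nM rapamycin, WB311 cells with DMSO vehicle, WB-F344 cells with 50 nM rapamycin and WB-F344 cells with DMSO vehicle, each exposed for 24 hr in medium with fetal bovine serum. WB-F344 is a diploid, non-tumorigenic epithelial line from the liver of an adult Fischer rat, labelled as sensitive to rapamycin, with a doubling time of 42 hr. WB311 arose from it spontaneously, is tumorigenic and doubles in 15.5 hr. Rapamycin inhibits the kinase mTOR. Each line stands for 1 origin, so that a difference between them cannot be told apart from what is particular to these cell stocks, and the lines differ in growth rate as well as in rapamycin sensitivity.

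Death receptors are proteins of the TNF receptor family that sit in the cell membrane. When its ligand binds, Fas recruits the adaptor FADD, which brings in pro-caspase-8, an enzyme that is activated by this clustering and starts the caspase cascade of apoptosis. TNF receptor 1, the product of Tnfrsf1a, instead first assembles a complex with the kinase RIPK1 and the ubiquitin ligase cIAP1, the product of Birc2, that favours NF-kappaB signaling and survival, while cFLIP, the product of Cflar, competes with caspase-8 for FADD. In liver, hepatocytes are known for their sensitivity to killing through Fas.

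The promoters of 3 genes are shown first, since Fas, Fadd and Birc2 were among the genes whose change with rapamycin differed between the lines. The sequences are those of RefSeq on the build GRCr8, where 7 of the 8 genes, all but Casp8, had an entry, and each runs 5′ to 3′ over the 250 bases before the start of the gene. Capitals mark matches, on either strand, to the 7 motifs searched, which were the GC box with the letters GGGCGG, the AP-1 motif with TGANTCA, the E2F motif with TTTCCCGC or TTTGGCGC, the TATA box with TATAAA, the CCAAT box by its own letters, the E-box with CACGTG, and the NF-kappaB motif by name.
Fas, chr1:241211905-241212154, plus strand: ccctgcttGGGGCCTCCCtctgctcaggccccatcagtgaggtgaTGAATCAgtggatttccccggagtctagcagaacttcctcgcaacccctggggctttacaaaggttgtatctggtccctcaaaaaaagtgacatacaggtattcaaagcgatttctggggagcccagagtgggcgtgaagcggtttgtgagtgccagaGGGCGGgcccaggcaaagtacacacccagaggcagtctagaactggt
Fadd, chr1:209174930-209175179, minus strand: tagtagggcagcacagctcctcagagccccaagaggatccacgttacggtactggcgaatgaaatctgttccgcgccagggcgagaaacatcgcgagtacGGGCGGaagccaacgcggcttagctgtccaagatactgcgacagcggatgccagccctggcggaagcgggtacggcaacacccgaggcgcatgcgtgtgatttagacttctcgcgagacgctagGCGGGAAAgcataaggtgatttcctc
Birc2, chr8:13271541-13271790, minus strand: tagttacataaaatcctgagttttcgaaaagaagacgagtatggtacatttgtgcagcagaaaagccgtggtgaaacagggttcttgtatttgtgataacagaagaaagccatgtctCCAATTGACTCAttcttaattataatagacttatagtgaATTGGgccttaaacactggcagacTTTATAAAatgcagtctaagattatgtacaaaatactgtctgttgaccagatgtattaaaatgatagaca
The Fas promoter held an NF-kappaB match from base -242 to -233, an AP-1 match from -205 to -199 and a GC box from -47 to -42, counted from the start of the gene. That of Fadd held a GC box from -150 to -145 and an E2F match from -26 to -19. That of Birc2 held 2 CCAAT matches, an AP-1 match that lies next to the first of them, and 2 TATA matches that overlap each other between bases -70 and -63. Among 33469 promoters of the same length, 6.33% held the NF-kappaB motif, 6.34% AP-1, 30.5% a GC box, 1.21% E2F, 34.0% CCAAT and 12.9% TATA. These matches describe letters in a window and are not binding sites.

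Values are intensities on the linear scale of the deposited table, and plates are given in the order 1, 2 and 3 of their labels. Testing required a mean intensity of 100 or more in either group of a comparison, or in any group for the difference between the lines in the change with rapamycin. A call, and the words rise and fall, required a limma p below 0.05 after Benjamini-Hochberg adjustment over all probe sets tested, together with a change of 1.2-fold or more. This admitted 9 of the 13 probe sets in WB-F344, while 8 passed in WB311. Probe sets of 1 gene read the same RNA and are not replicates. Apart from sums of cell type markers, intensities of different probe sets are not combined or set against each other.

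**Figure D1:**
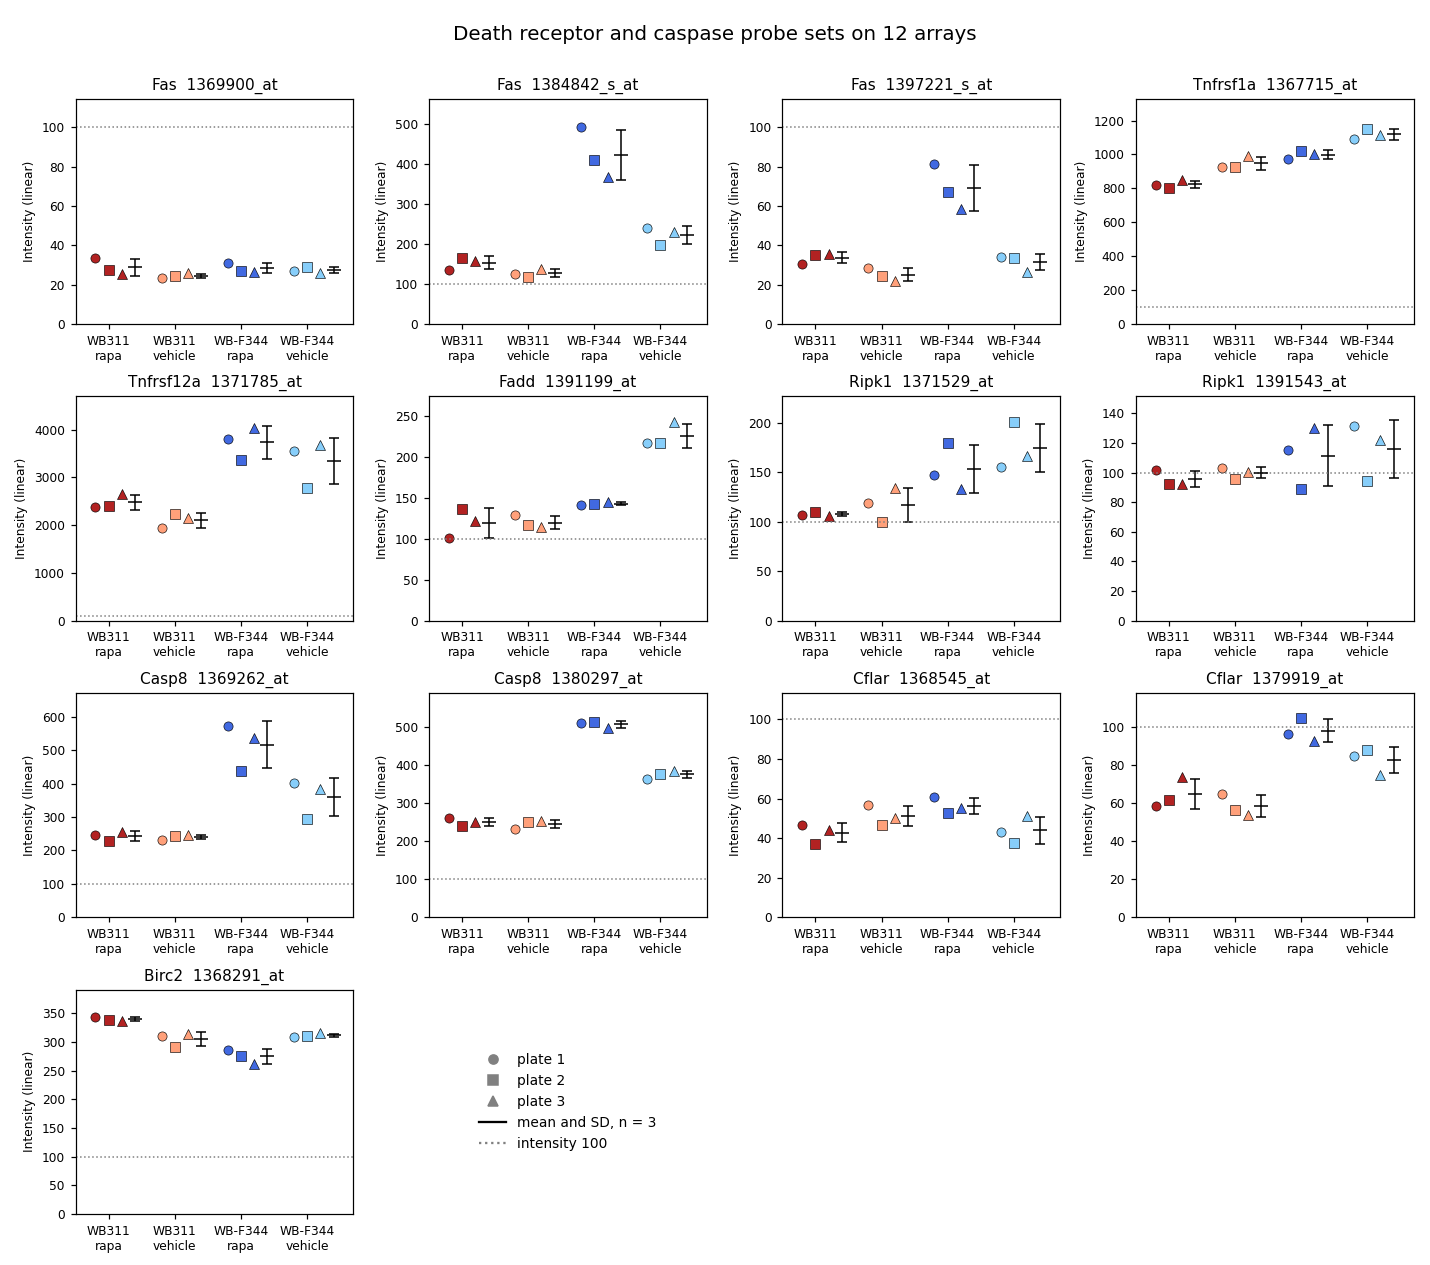
Linear intensity (vertical axes, from 0) of the 13 probe sets on 12 arrays, 1 panel per probe set, with the groups from left to right WB311 rapamycin, WB311 vehicle, WB-F344 rapamycin and WB-F344 vehicle. Symbols are plates 1, 2 and 3, bars the mean and SD of 3 plates and the dotted line an intensity of 100. Both Casp8 probe sets and Fas 1384842_s_at lie higher in WB-F344 plates with rapamycin than in every other plate, and Fadd lies highest in WB-F344 vehicle plates.

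In WB-F344 cells rapamycin raised Fas and Casp8 and lowered Fadd. The receptor Fas rose 1.90-fold and the initiator caspase Casp8 rose 1.35- and 1.44-fold on its 2 probe sets, while the adaptor Fadd that links them fell 1.57-fold. The other 2 receptors, Tnfrsf1a and Tnfrsf12a, the kinase Ripk1 and the inhibitor Birc2 were not called, and Cflar was not tested. Thus 4 of 9 probe sets, from 3 genes, were called, 3 higher and 1 lower, against 22.6% of all 13261 probe sets tested, of which 7.58% were higher and 15.0% lower. The median log2 fold change was -0.06 over the 9 probe sets and -0.05 over all tested. The 2 groups did not overlap for 6 of the 9, against 34.3% of all.

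In WB311 cells none of the 8 tested probe sets was called with rapamycin, against 3.72% of 13135 probe sets, 1.87% higher and 1.85% lower. Of the 8, 3 had an unadjusted p under 0.05 in limma, as had 2372 of the 13135. The methods' t-test, with probe sets under 1.2-fold removed before the Benjamini-Hochberg adjustment, called none of the 8 either. Nor did a limma fit of the 2 WB311 groups alone, which does not draw on the wider spread of the WB-F344 plates. The median log2 fold change was 0.03 over the 8 probe sets and 0.01 over all tested. The 2 groups did not overlap for 3 of the 8, against 38.7% of all. The difference between the lines in the change with rapamycin, taken as the WB311 change minus the WB-F344 change, was called for 4 of 9 probe sets, those of Fas, Fadd and Birc2 and 1 of Casp8. These were 2 higher and 2 lower, against 10.7% of 14214, 7.34% higher and 3.33% lower. With no intensity filter 2 of these were called, and without WB311 vehicle plate 2 or WB311 rapamycin plate 1 likewise 2.

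**Figure D2:**
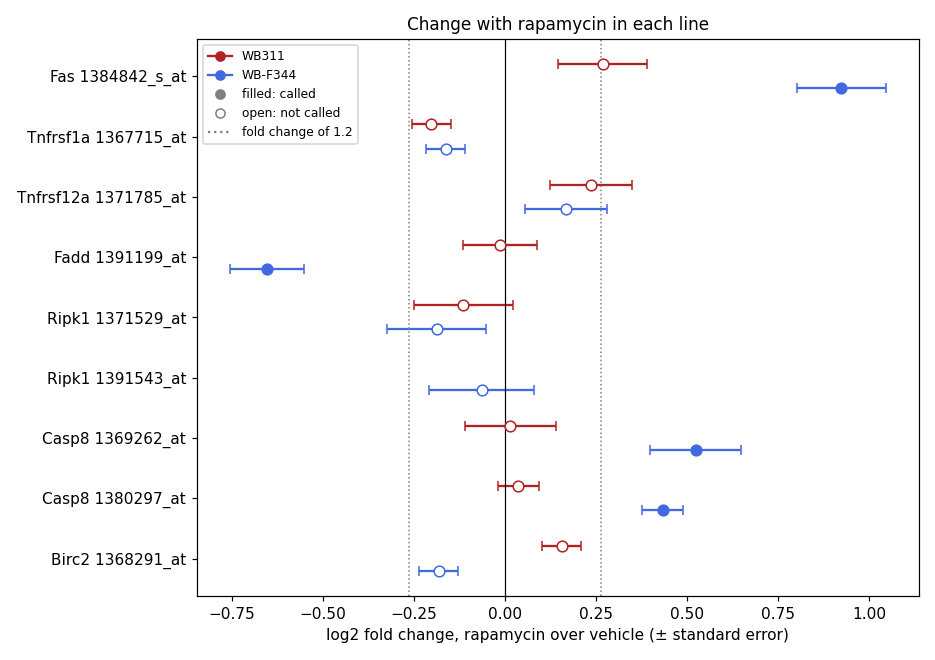
Log2 fold change of rapamycin over vehicle (horizontal axis, with standard errors from limma) for each tested probe set, with WB311 in red above WB-F344 in blue. Filled points were called and dotted lines mark a fold change of 1.2. The 4 filled points are all of WB-F344, at 0.92 for Fas, 0.52 and 0.43 for Casp8 and -0.65 for Fadd.

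Fas, the receptor of Fas ligand, was measured by 3 probe sets, of which 1384842_s_at was tested. It read 136, 166 and 159 in WB311 plates with rapamycin, against 125, 118 and 139 in WB311 vehicle plates. It read 493, 410 and 369 in WB-F344 plates with rapamycin, against 241, 197 and 230 in WB-F344 vehicle plates. Every WB-F344 rapamycin plate was thus above every other plate, while the WB311 groups overlapped in 1 rapamycin plate. The log2 fold change was 0.92 (SE 0.12, limma adjusted p = 0.000349) in WB-F344 and 0.27 (SE 0.12, adjusted p = 0.276) in WB311. The difference between these, -0.65 (SE 0.17, adjusted p = 0.0352), lost its call in 8 of the 12 fits that left out 1 array, with adjusted p up to 0.0871, and with no intensity filter, at 0.0579.

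The other Fas probe sets stayed under an average of 100 in every group and were not tested. Fas 1397221_s_at read 30.7, 34.9 and 35.6 in WB311 with rapamycin, against 28.5, 24.3 and 22.0 in WB311 with vehicle. In WB-F344 it read 81.6, 67.0 and 58.4 with rapamycin, against 33.9, 33.7 and 26.5 with vehicle. The rapamycin plates were above the vehicle plates in both lines, by 0.44 log2 units in WB311 and by 1.13 in WB-F344. In a fit with no intensity filter limma's adjusted p was 0.230 in WB311 and 0.000326 in WB-F344. Fas 1369900_at lay between 23.6 and 33.8 on all 12 arrays, with rapamycin and vehicle plates overlapping in both lines, so the probe sets of this gene did not all show the difference.

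Tnfrsf1a, which encodes TNF receptor 1, read 818, 804 and 848 in WB311 with rapamycin, against 924, 929 and 990 with vehicle, and 972, 1022 and 1004 in WB-F344 with rapamycin, against 1090, 1152 and 1113 with vehicle. In both lines all rapamycin plates were below all vehicle plates, by a small margin. The log2 fold change was -0.20 (SE 0.05, limma adjusted p = 0.0607) in WB311 and -0.16 (SE 0.05, adjusted p = 0.0439) in WB-F344, under the fold change of 1.2 in both. The difference between the lines was -0.04 (SE 0.08, adjusted p = 0.819).

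Tnfrsf12a, also called Fn14, encodes the receptor of the cytokine TWEAK. It read 2389, 2391 and 2654 in WB311 with rapamycin, against 1931, 2231 and 2150 with vehicle, which do not overlap, and the log2 fold change was 0.24 (SE 0.11, limma adjusted p = 0.301). In WB-F344 it read 3803, 3363 and 4034 with rapamycin, against 3561, 2779 and 3672 with vehicle, which overlap. Plate 2 was the lowest of its group in both WB-F344 groups, and the log2 fold change there was 0.17 (SE 0.11, adjusted p = 0.304). Its ligand TWEAK, encoded by Tnfsf12, averaged 149 and 146 in WB311 with rapamycin and vehicle, and 190 and 177 in WB-F344, with no call for rapamycin in either line.

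Fadd, the adaptor between death receptors and caspase-8, read 100.2, 137 and 121 in WB311 with rapamycin, against 128, 116 and 114 with vehicle. In WB-F344 it read 141, 142 and 145 with rapamycin, against 217, 216 and 242 with vehicle. The WB-F344 rapamycin plates lay close together and well below the vehicle plates, while the WB311 groups overlapped, with the lowest and the highest plate both among those with rapamycin. The log2 fold change was -0.65 (SE 0.10, limma adjusted p = 0.000919) in WB-F344 and -0.01 (SE 0.10, adjusted p = 0.972) in WB311, and the difference of 0.64 (SE 0.14, adjusted p = 0.0174) stayed called whichever array was left out.

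Ripk1, the kinase of the TNF receptor complex, had 2 probe sets. Ripk1 1371529_at read 107, 110 and 106 in WB311 with rapamycin, against 119, 99.5 and 134 with vehicle, and 147, 180 and 133 in WB-F344 with rapamycin, against 155, 201 and 166 with vehicle. Groups with and without rapamycin overlapped in both lines, and the log2 fold change was -0.11 (SE 0.14, limma adjusted p = 0.758) in WB311 and -0.19 (SE 0.14, adjusted p = 0.348) in WB-F344. Ripk1 1391543_at lay between 89.0 and 132 on all arrays, was not tested in WB311, and its log2 fold change in WB-F344 was -0.06 (SE 0.14, adjusted p = 0.785). The WB-F344 plates numbered 2 were the highest of their groups on the first probe set and the lowest on the second.

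Casp8 encodes the initiator caspase of the death receptor pathway. Casp8 1380297_at read 262, 241 and 251 in WB311 with rapamycin, against 233, 250 and 253 with vehicle, and 512, 513 and 497 in WB-F344 with rapamycin, against 364, 378 and 385 with vehicle. The WB311 groups overlapped and the WB-F344 groups lay far apart relative to their spread. The log2 fold change was 0.43 (SE 0.06, limma adjusted p = 0.00032) in WB-F344 and 0.04 (SE 0.06, adjusted p = 0.832) in WB311, and the difference was -0.40 (SE 0.08, adjusted p = 0.0105), called whichever array was left out.

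Casp8 1369262_at spread more widely in WB-F344. It read 245, 228 and 256 in WB311 with rapamycin, against 232, 243 and 246 with vehicle, and 573, 438 and 537 in WB-F344 with rapamycin, against 402, 294 and 385 with vehicle. Plate 2 was the lowest of both WB-F344 groups, yet its value with rapamycin was above all 3 vehicle values. Between plates of the same number, a pairing that was not established, the log2 differences in WB-F344 were 0.51, 0.58 and 0.48. The log2 fold change was 0.52 (SE 0.13, limma adjusted p = 0.0103) in WB-F344 and 0.01 (SE 0.12, adjusted p = 0.976) in WB311. The WB-F344 call was lost in the methods' t-test, with probe sets under 1.2-fold removed first (adjusted p = 0.0782), in the same t-test adjusted over all probe sets (0.177) and in a limma fit of the 2 groups alone (adjusted p = 0.0846). The difference between the lines, -0.51 (SE 0.18, adjusted p = 0.100), was not called. It was called with the fold filter before the adjustment (adjusted p = 0.0337), without WB-F344 rapamycin plate 2 (-0.62, adjusted p = 0.0330) and without both WB-F344 plates numbered 2 (adjusted p = 0.00494).

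Birc2 encodes cIAP1, the ubiquitin ligase that modifies RIPK1. It read 343.5, 339 and 337 in WB311 with rapamycin, against 310, 292 and 313 with vehicle, and 287, 275 and 262 in WB-F344 with rapamycin, against 309, 311 and 315 with vehicle. With rapamycin all 3 plates were higher in WB311 and all 3 lower in WB-F344, without overlap, but each change was under 1.2-fold. The log2 fold change was 0.16 (SE 0.05, limma adjusted p = 0.149) in WB311 and -0.18 (SE 0.05, adjusted p = 0.0282) in WB-F344. The difference, 0.34 (SE 0.08, adjusted p = 0.0189), was called. It was under the fold change of 1.2 with cyclic loess scaling (0.26, adjusted p = 0.043), and its adjusted p was 0.0589 with no intensity filter, 0.0544 without WB311 vehicle plate 2 and 0.0507 without WB311 rapamycin plate 1.

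Cflar, the inhibitor of caspase-8 activation, could not be tested, since both of its probe sets averaged under 100 in every group. Cflar 1379919_at read 58.9, 61.8 and 73.9 in WB311 with rapamycin, against 64.9, 56.5 and 53.8 with vehicle, and 96.8, 105 and 92.9 in WB-F344 with rapamycin, against 85.0, 88.0 and 75.0 with vehicle. On this probe set all WB-F344 plates were above all WB311 plates, and the WB-F344 rapamycin plates above the vehicle plates. With no intensity filter Cflar 1379919_at was called lower in WB311 than in WB-F344, by -0.60 with rapamycin (limma adjusted p = 0.000529) and -0.50 with vehicle (adjusted p = 0.00229). Its change with rapamycin in WB-F344 was 0.25 in that fit and not called (adjusted p = 0.180).

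Cflar 1368545_at did not run the same way. It read 46.5, 37.3 and 44.3 in WB311 with rapamycin, against 56.8, 46.7 and 50.1 with vehicle, and 60.8, 52.9 and 55.5 in WB-F344 with rapamycin, against 43.0, 37.4 and 51.3 with vehicle. All rapamycin plates were below the vehicle plates in WB311, by -0.26 log2 units, and above them in WB-F344, by 0.37. With no intensity filter neither change was called (limma adjusted p = 0.504 in WB311 and 0.0856 in WB-F344), nor was the difference between them of -0.63 (adjusted p = 0.0747). In that fit this probe set was called lower in WB311 than in WB-F344 with rapamycin (-0.41, adjusted p = 0.0220), while with vehicle its difference was 0.23 (adjusted p = 0.193) and the lines overlapped.

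More of these probe sets differed between the lines than with rapamycin, as did more of all probe sets tested. With vehicle, 6 of 9 probe sets were lower in WB311 than in WB-F344 and none was higher, against 55.5% of 13871 probe sets called, 27.6% higher and 27.9% lower. The median log2 difference was -0.57 over the 9 and 0.02 over all tested, and the groups did not overlap for 7 of 9, against 66.4% of all. With rapamycin, 7 of 9 were lower and 1 higher in WB311, against 58.8% of 13949, 33.0% higher and 25.8% lower. The median there was -0.50 over the 9 and 0.06 over all. The groups did not overlap for 8 of 9, against 72.3%.

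**Figure D3:**
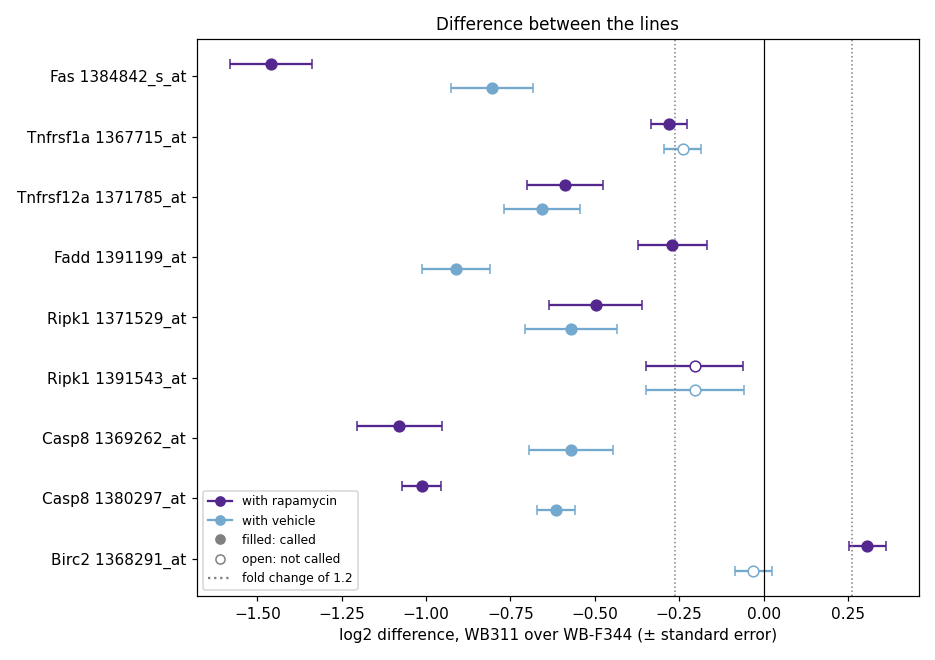
Log2 difference of WB311 over WB-F344 (horizontal axis, with standard errors from limma) for the 9 tested probe sets, with rapamycin in purple above vehicle in blue. Filled points were called and dotted lines mark a fold change of 1.2. All called points lie left of 0 except Birc2 with rapamycin, at 0.31, and the Fas and Casp8 points lie further left with rapamycin.

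Fas 1384842_s_at was 2.75-fold lower in WB311 with rapamycin (log2 difference -1.46, SE 0.12, limma adjusted p = 1.21e-06) and 1.75-fold lower with vehicle (-0.80, SE 0.12, adjusted p = 0.000169). Both Casp8 probe sets were lower, by -1.01 and -1.08 with rapamycin and by -0.62 and -0.57 with vehicle. Tnfrsf12a was lower by -0.59 (SE 0.11) with rapamycin and -0.66 (SE 0.11) with vehicle. On these probe sets no WB311 plate reached any WB-F344 plate of the same treatment. The 2 untested Fas probe sets did not both follow. Fas 1397221_s_at was lower in WB311 without overlap with rapamycin (-1.02) but overlapped with vehicle (-0.33), and Fas 1369900_at overlapped with rapamycin (0.02) and was slightly lower with vehicle (-0.15).

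Fadd showed its wider gap with vehicle, at -0.91 (SE 0.10, limma adjusted p = 1.54e-05), against -0.27 (SE 0.10, adjusted p = 0.0371) with rapamycin, where Fadd had fallen in WB-F344. That second call was lost in 5 of 6 fits that left out 1 array and under 7 other settings, with adjusted p up to 0.153. Ripk1 was lower in WB311 on 1371529_at, by -0.50 (SE 0.14, adjusted p = 0.00789) with rapamycin and -0.57 (SE 0.14, adjusted p = 0.00383) with vehicle. The vehicle call was lost in the t-test adjusted over all probe sets (adjusted p = 0.0545) and kept in the methods' t-test with the fold filter first (0.0365). Ripk1 was not called on 1391543_at, at -0.20 (SE 0.14) with either treatment. Without WB-F344 vehicle plate 2 and rapamycin plate 2 the differences on that probe set were -0.36 with rapamycin and -0.35 with vehicle, both called (adjusted p = 0.00131 and 0.0017).

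Tnfrsf1a was lower by -0.28 (SE 0.05, limma adjusted p = 0.000859) with rapamycin, just over the fold change of 1.2, a call that was lost without WB311 rapamycin plate 2 and with arrays centred on their medians. With vehicle its difference of -0.24 was just under that fold. Birc2 was the exception in direction, higher in WB311 by 0.31 (SE 0.05, adjusted p = 0.000461) with rapamycin and at -0.03 (SE 0.05, adjusted p = 0.650) with vehicle. With cyclic loess scaling the Birc2 difference with rapamycin was 0.24 and not called. In the order of the 4 group means, the 2 WB311 groups were neighbours that overlapped for Fas 1384842_s_at, Fadd and both Casp8 probe sets, as were the 2 WB-F344 groups for Tnfrsf12a, and for both Ripk1 probe sets all neighbours overlapped. For Tnfrsf1a the neighbours that overlapped were WB-F344 with rapamycin and WB311 with vehicle, and for Birc2 the 2 vehicle groups.

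Other genes of the pathway were taken from a list of 72 genes by role, of which 61 had a probe set of their own, and the probe set of highest mean stood for each gene. With rapamycin, 3 of 45 tested genes were called in WB311, 1 higher and 2 lower (6.67%), and 6 of 44 in WB-F344, 1 higher and 5 lower (13.6%). Both shares stand beside the 3.72% and 22.6% of all probe sets given above. The median log2 fold change of the tested genes was 0.03 in WB311 and -0.10 in WB-F344.

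**Figure D4:**
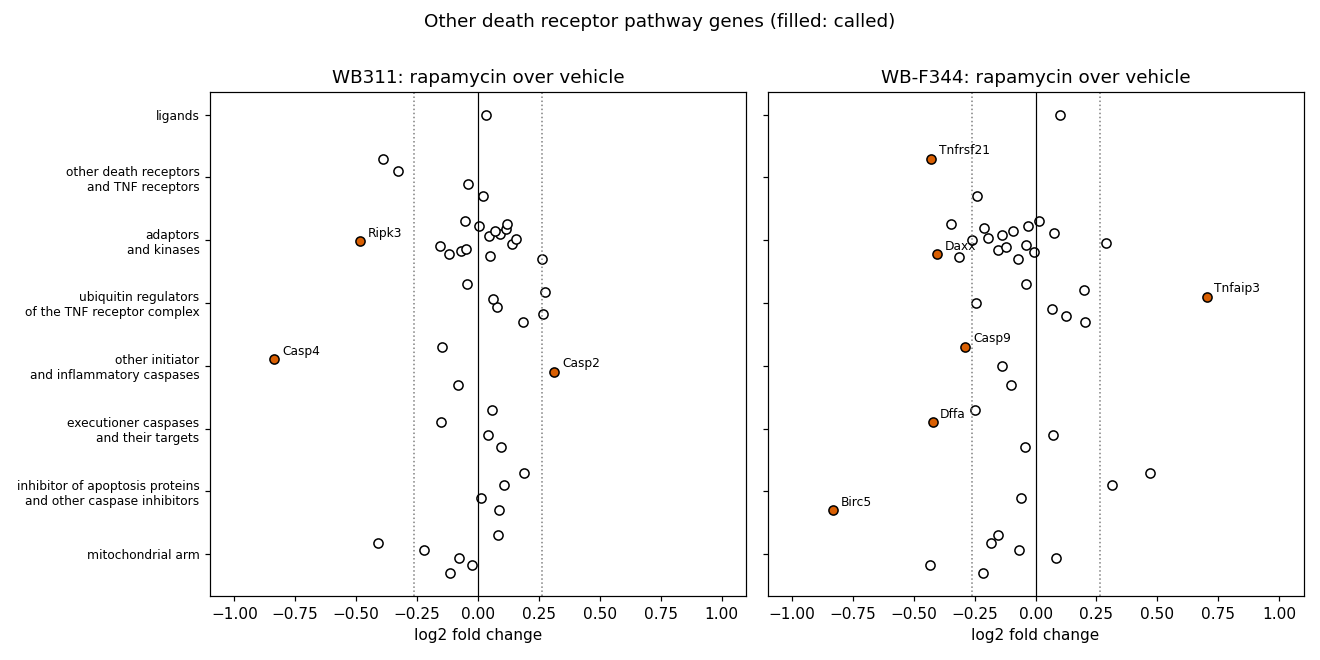
Log2 fold change of rapamycin over vehicle (horizontal axes) in WB311 (left) and WB-F344 (right) for the other tested genes of the pathway, in rows by role. Each point is 1 gene, filled and named where it was called, and dotted lines mark a fold change of 1.2. Called genes are Casp2, Casp4 and Ripk3 in WB311 and Tnfaip3, Birc5, Tnfrsf21, Dffa, Daxx and Casp9 in WB-F344.

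Of 6 ligand genes measured, those of Fas ligand, TNF, lymphotoxin alpha and beta and TRAIL averaged under 100 in every group, and only Tnfsf12 was tested. Among the other receptors Tnfrsf21, known as death receptor 6, fell in WB-F344 (log2 fold change -0.43, SE 0.14, limma adjusted p = 0.0495). Among adaptors and kinases Ripk3, the kinase of necroptosis, fell in WB311, averaging 517 with rapamycin and 722 with vehicle (-0.48, SE 0.10, adjusted p = 0.0281). In WB-F344 Ripk3 averaged 1048 with rapamycin and 1260 with vehicle and was not called (-0.26, SE 0.10, adjusted p = 0.0892). Daxx, which binds Fas, fell in WB-F344 (-0.40, SE 0.07, adjusted p = 0.00237). Tnfaip3, the ubiquitin editing enzyme A20 that restrains NF-kappaB signaling, rose in WB-F344, averaging 137 with rapamycin and 84.1 with vehicle (0.70, SE 0.11, adjusted p = 0.000769). In WB311 Tnfaip3 averaged 92.0 with rapamycin and 63.2 with vehicle, a log2 change of 0.54 that was not tested. Only WB-F344 with rapamycin reached an average of 100. The difference between the lines in its change with rapamycin was -0.16 (SE 0.15, limma adjusted p = 0.583) and was not called.

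Among caspases, Casp4, an inflammatory caspase, fell in WB311, averaging 185 with rapamycin and 330 with vehicle (-0.84, SE 0.12, limma adjusted p = 0.00452). In WB-F344 Casp4 averaged 31.15 with rapamycin and 46.54 with vehicle (-0.59) and was not tested. Casp2 rose in WB311 (0.31, SE 0.06, adjusted p = 0.0126). Casp9, the initiator of the mitochondrial arm, fell in WB-F344 (-0.29, SE 0.07, adjusted p = 0.00981), as did Dffa, the inhibitor of the caspase-activated nuclease (-0.42, SE 0.14, adjusted p = 0.0449). In WB-F344 Dffa averaged 79.08 with rapamycin and 106.7 with vehicle. It was tested there only because the vehicle group reached the minimum average of 100. Birc5, or survivin, which also acts in mitosis, averaged 324 with rapamycin and 578 with vehicle in WB-F344 (-0.83, SE 0.12, adjusted p = 0.000544). None of the 6 tested genes on the list for the mitochondrial arm, which does not hold Casp9, was called in either line. The difference between the lines in the change with rapamycin was called for 4 of 47 genes (8.51%), beside 10.7% of all probe sets tested. All 4 were higher in WB311, which were Birc5 at 0.92, Daxx at 0.46, Casp2 at 0.45 and Traf2 at 0.33. It was not called for Casp4, Ripk3, Tnfaip3, Tnfrsf21, Casp9 or Dffa, each called above in a single line.

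Between the lines, more of the other genes were called higher than lower in WB311. With vehicle, 19 of 46 tested genes were higher and 8 lower in WB311 (58.7%), with a median log2 difference of 0.17. With rapamycin, 22 of 45 were higher and 6 lower (62.2%), with a median of 0.36. Over all probe sets 55.5% were called with vehicle, 27.6% higher and 27.9% lower, and 58.8% with rapamycin, 33.0% higher and 25.8% lower. The total shares of these genes lie close to those totals, but their split leaned further to the higher side. The medians over all probe sets were 0.02 and 0.06. All 4 tested caspases of the initiator and inflammatory list were higher in WB311 with vehicle, which were Casp4 (2.83), Casp2 (1.17), Casp12 (0.94) and Casp9 (0.39), in log2 differences. So were all 4 tested genes of the inhibitor list, Ptpn13 (1.35), Xiap (1.23), Faim (0.51) and Birc5 (0.44). Of these 4, Ptpn13 encodes a phosphatase that binds Fas and Birc5 acts mainly in cell division. Casp8 is thus on the opposite side from these caspases. The inhibitors among the members, which that list leaves out, were not higher as a group with vehicle. Birc2 was at -0.03 (limma adjusted p = 0.650), and the untested Cflar probe sets 1379919_at and 1368545_at were at -0.50 and 0.23. Among receptors Tnfrsf26 averaged 282 in WB311 and 18.3 in WB-F344 with vehicle, and Tnfrsf25, or death receptor 3, averaged 188 in WB311 and 45.8 in WB-F344. Casp4 and Xiap averaged 46.54 and 92.75 in WB-F344 with vehicle. With vehicle Casp4, Xiap, Tnfrsf26 and Tnfrsf25 reached the minimum average of 100 only in WB311. They could thus enter these counts only as higher in WB311. Cradd reached that minimum only in WB-F344, at 104.9 against 85.05 in WB311, and was not called.

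Lower in WB311 with vehicle were Pea15 (-1.59), which binds FADD and caspase-8 through its death effector domain, Htra2 (-1.42), a mitochondrial protease that antagonizes inhibitor of apoptosis proteins, Cyld (-1.24), a deubiquitinase of the TNF receptor complex, and Ripk3 (-0.80). Casp8ap2, which encodes a caspase-8 binding protein, was higher (1.77). Each of these 5 differences had a limma adjusted p of 5.66e-05 or less. Also lower were Tnfsf12 (-0.28), Ltbr (-0.39), the lymphotoxin beta receptor, and Rnf31 (-0.27), a ubiquitin ligase of linear chains. Also higher were Tnfrsf21 (0.46), Map3k7 (0.76), which encodes the kinase TAK1, Tnip1 (0.64), a partner of A20, the executioner caspase Casp6 (0.65), Dffa (1.59), and Endog (0.35), a mitochondrial nuclease. With rapamycin the genes called by the same rule included Traf2 (0.49), an adaptor of TNF receptors, and Parp1 (0.51), a DNA repair enzyme that caspases cleave, both higher in WB311, and Tnfaip3 (-0.57), lower.

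For the member probe sets whose group means spanned at least 1 log2 unit, the 3 probe sets of most similar pattern were sought among 11481, by the root mean square distance over 12 arrays after centring every probe set on the log2 scale. For Fas 1384842_s_at these were 2 probe sets of Dusp6, a phosphatase of the kinase ERK, at distances of 0.133 and 0.154, and 1 of Rbpj, the transcription factor of Notch signaling, at 0.152. Dusp6 1387024_at averaged 2612 in WB311 with rapamycin and 2146 with vehicle, and 6745 in WB-F344 with rapamycin and 3437 with vehicle. For Fas 1397221_s_at they were Junb, Gpm6b and Sgk1, at 0.166 to 0.209. For Casp8 1369262_at they were Rab20, Cript and Chmp1b, at 0.0811 to 0.1, and for Casp8 1380297_at Auh, Tpp1 and Dnajc30, at 0.0795 to 0.0845. No gene was shared between the 2 probe sets searched for either gene.

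Median intensity per array was 59.5 to 62.9. On the WB-F344 plates numbered 2 the 3′ signal of Gapdh exceeded its 5′ signal by 0.17 and 0.34 log2 units, against -0.12 to -0.04 on the other 4 WB-F344 plates and -0.11 to -0.04 on the 6 WB311 plates. For beta-actin the excess was 0.62 and 1.04 on the WB-F344 plates numbered 2. It was 0.214 to 0.255 on the other 4 WB-F344 plates and 0.376 to 0.488 on the 6 WB311 plates, which do not overlap. The part of this in the plate 2 values above was not tested beyond the fits without the plates numbered 2. Its part in the differences between the lines was not tested. The median SD between plates in log2 units was 0.0642 in WB311 with rapamycin and 0.0782 with vehicle, and 0.13 in WB-F344 with rapamycin and 0.154 with vehicle. Of the epithelial markers Krt8 reached 100 in both lines, Krt18 and Krt19 only in WB311, and Cdh1 and Epcam in no group. In WB311 with rapamycin and vehicle Krt18 averaged 182 and 247, and Krt19 86.65 and 109.9. In WB-F344 these averaged 19.9 and 23.0, and 25.3 and 23.1. The summed intensity of the epithelial markers, most of it Krt8, was 5814 to 6035 in WB311 with rapamycin and 6243 to 6685 with vehicle. In WB-F344 it was 2295 to 2559 with rapamycin and 2841 to 3222 with vehicle. Of 4 endothelial markers measured only Tek, a receptor kinase, reached 100, averaging 1129 in WB311 with rapamycin and 995 with vehicle, against 33.2 in WB-F344 with rapamycin and 37.1 with vehicle. Of 6 hepatocyte markers only Ttr reached it, and none of 6 leukocyte markers measured did. The summed intensity of the 6 mesenchymal markers was 12208 to 12729 in WB311 with rapamycin and 12782 to 13068 with vehicle, against 35474 to 40733 in WB-F344 with rapamycin and 44026 to 51616 with vehicle. Most of the WB311 sum was Vim, which averaged 11300 and 11840 with rapamycin and vehicle, against 13110 and 14710 in WB-F344. Col1a1, Col3a1, Acta2 and Tagln averaged well below WB-F344 in WB311. Pdgfrb averaged 56.6 and 63.1 in WB311 with rapamycin and vehicle, against 70.0 and 55.2 in WB-F344. The part of these markers in the differences between the lines was not tested, and in cultures measured in bulk fewer cells of a type and less RNA per cell cannot be told apart.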

How the data were processed

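Total RNA came from triplicate plates, and nothing says that these were separate cultures beyond the plate, so p-values measure the spread between plates. In the main limma fit this spread was pooled over all groups, although plates spread more widely in WB-F344 than in WB311. The authors normalized the arrays with Robust Multiarray Average, whose version is not given in the sources used here, and deposited an intensity per probe set on a linear scale, from 7.78 to 20499. Every data column matched a sample, with 0 left over. The log2 of each intensity was taken here. Of 31099 probe sets 57 were controls. The others numbered 31042, and the platform annotation named a single gene for 20826, no gene for 9780 and more than 1 gene for 436. RefSeq held the gene ID of 20758. No member probe set carried several symbols.

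All 12 arrays were fitted as 4 group means with limma 3.58.1 in R 4.3.3, with Benjamini-Hochberg adjustment per comparison over all probe sets passing the filter. The intensity minimum of 100, the fold change of 1.2 and the threshold of 0.05 follow the study's methods, whose two-sample t-test on 3 plates a group was run as an alternative, adjusted over all probe sets passing the intensity filter and, added after seeing the data, with those under 1.2-fold removed before the adjustment, as the methods state. Contrasts covered the effect of rapamycin per line, the interaction of line and rapamycin, and WB311 against WB-F344 with each treatment. The fit was run on simulated data with independent noise on each array and few changed probe sets. That setting does not hold the correlated plates of WB-F344 or the many calls between the lines. With 3 plates against 3, a permutation test could not go below p = 0.1, so none was used. The number of arrays limits the precision.

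Alternatives were cyclic loess or median scaling, no or a stricter filter (200), an offset of 32 before the log, the fold filter before adjustment, the t-test, only 2 groups in the fit, a replicate block, leaving out each array, and leaving out both WB-F344 plates numbered 2. Every member probe set is described. Of each pathway role, up to 4 called genes of smallest adjusted p per comparison are named, and genes of like pattern for member probe sets spanning 1 log2 unit. Members, lists and rules were chosen with earlier results of these data known.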

Additional observations from a re-analysis of the deposited data

Results flagged for a closer look

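The change with rapamycin differed between the lines, by limma's test of the interaction, for 4 member probe sets. In log2 units, taken as the WB311 change minus the WB-F344 change, it was -0.65 for Fas 1384842_s_at, 0.64 for Fadd 1391199_at, -0.40 for Casp8 1380297_at and 0.34 for Birc2 1368291_at. Only for Birc2 did the plates of the 2 lines lie on opposite sides, higher with rapamycin in WB311 and lower in WB-F344, with neither change reaching 1.2-fold. The interaction calls of Fadd and Casp8 1380297_at held under all 20 alternatives, that of Fas under 11 of 20 and that of Birc2 under 16 of 20.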

How the results depend on the processing

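In WB-F344 the number of member probe sets called with rapamycin stayed at 4 whichever array was left out, and in WB311 at 0. For the interaction it ran between 2 and 5 when 1 array was left out, was 2 with no filter on intensity and 5 with the replicate block or with the fold filter first, against 4. Between the lines it was 7 to 8 with rapamycin and 6 to 7 with vehicle when 1 array was left out. Deviations from the group means correlated at 0.561 to 0.871 between same-numbered plates in WB-F344 and at -0.139 to -0.000258 in WB311. Plates 1 and 3 of different number also reached 0.605 in WB-F344, where plate 2 stood apart from both, and a plate did not always correlate best with its own number, so pairing by number was not established. The replicate block changed no other member call than that of Casp8 1369262_at in the interaction (adjusted p = 0.00357). It moved the calls over all probe sets to 1205 from 488 in WB311 and to 3229 from 1517 for the interaction. Of 437 member values under settings that kept all arrays or left out both WB-F344 plates numbered 2, 414 kept direction and side of the threshold, and of 318 with 1 array left out 278 did. The sign turned only for uncalled values. For the interaction of Ripk1 1391543_at it was 0.030 with median centring and 0.00058 with the offset of 32, against -0.0008, and -0.15 to 0.14 with 1 array left out. The other ranges with 1 array left out that cross 0 were -0.21 to 0.089 for Ripk1 1391543_at in WB-F344, -0.12 to 0.11 for Fadd, -0.024 to 0.061 for Casp8 1369262_at and -0.0012 to 0.065 for Casp8 1380297_at in WB311, -0.0062 to 0.19 for Tnfrsf12a and -0.041 to 0.19 for Ripk1 1371529_at in the interaction, and -0.050 to 0.0022 for Birc2 between the lines with vehicle. Over all probe sets, calls in WB-F344 were 3000, against 2035 in the methods' t-test with the fold filter first, an order added after seeing the data, 1046 with that t-test adjusted over all probe sets and 1658 with 2 groups in the fit. In WB311 they were 488, against 181 to 241 with 1 array left out, 289 with no filter, 1066 with the fold filter first, 1234 in the methods' t-test with the fold filter first and 1319 with 2 groups. For the interaction they were 1517, against 2544 with the fold filter first, 2974 without both WB-F344 plates numbered 2 and 989 without WB311 rapamycin plate 3. Scaling moved the split of calls in WB-F344, which was 1005 higher and 1995 lower, to 1416 and 1523 with cyclic loess, and that of the interaction, 1044 and 473, to 881 and 720. The cause of these moves was not tested.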
